A study of Rattus norvegicus with 6 samples.

Results

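The cardiac lineage transcription factors described here are 9 genes, Gata4, Gata6, Nkx2-5, Isl1, Tbx5, Tbx18, Tbx20, Hand1 and Hand2, chosen by symbol from the 31038 genes listed in the count files. All 9 symbols were found. RNA was sequenced from cultured rat cells that received an siRNA against eIF3m (3 libraries) or a control siRNA (3 libraries). eIF3m is a subunit of translation initiation factor 3, which helps to load the small ribosomal subunit on mRNA. The labels call the cells NRVM without spelling the name out, describe them as myocardial, and give embryonic rat heart muscle grown in DMEM with fetal bovine serum as their origin. The protocol text also holds a feeding scheme with dexamethasone, isobutylmethylxanthine and insulin, and the labels do not say that it was used on these cells. Whether each replicate came from a culture of its own is not stated, and p-values therefore cover the spread between these libraries alone, which may be technical.

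In the vertebrate heart these factors act as a network that binds shared control regions and regulates its own members. GATA4 and GATA6 are zinc finger proteins, NKX2-5 and ISL1 carry homeodomains, TBX5, TBX18 and TBX20 share the T-box, and HAND1 and HAND2 are basic helix-loop-helix proteins. Each also works elsewhere: GATA6 in endoderm, TBX18 in somites, HAND2 in limb buds and branchial arches, ISL1 in motor neurons. In the heart, TBX18 marks the epicardium and the sinus venosus, from which pacemaker tissue forms.

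The factors differed in how well they were counted. Gata4, Gata6, Nkx2-5, Tbx18 and Hand2 were counted in all 6 libraries and passed the filter on low counts, whereas Tbx5, Tbx20, Hand1 and Isl1 did not pass it. Of the 5 that were tested, Tbx18 rose and Hand2 fell with the eIF3m siRNA, and 3 did not pass the test. That is 2 of 5 members called, or 40%, beside 38.7% of all 12724 genes tested (2220 genes, or 17.4%, rose and 2700, or 21.2%, fell), a share near the background. The median log2 fold change (eIF3m siRNA over control siRNA) of the 5 was 0.11, beside 0.013 over all genes tested. Calls here are edgeR quasi-likelihood tests with Benjamini-Hochberg adjusted p under 0.05 over all genes tested. The split of calls over all genes depends on the scaling: 45.1% of called genes rose with TMM, 58.6% with upper-quartile scaling and 71.0% with no scaling factors. Tbx18 was called higher and Hand2 lower under each of these scalings.

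The RefSeq sequences just before the start sites of Hand2, which fell, Tbx18, which rose, and Nkx2-5, which did not pass the test, are shown because these are the members that moved and a detected member that was not called. They cover the 250 bases before the start in rat assembly GRCr8, at chr16:37931489-37931738 (minus strand) for Hand2, chr8:97559966-97560215 (minus strand) for Tbx18 and chr10:16848350-16848599 (plus strand) for Nkx2-5. The counts themselves were made on the older build rn6. Capitals mark matches, on either strand, to a site of 4 kinds of factor. The site searched for GATA factors was AGATAA, found in 10.3% of all 33469 windows of this length. For NK2 homeodomain factors the letters CAAGTG were searched, found in 11.7% of the windows. The T-box core searched was GGTGTG, which is in 15.4% of them. For the TATA box the letters were TATAAA, with a share of 12.9%.
Hand2: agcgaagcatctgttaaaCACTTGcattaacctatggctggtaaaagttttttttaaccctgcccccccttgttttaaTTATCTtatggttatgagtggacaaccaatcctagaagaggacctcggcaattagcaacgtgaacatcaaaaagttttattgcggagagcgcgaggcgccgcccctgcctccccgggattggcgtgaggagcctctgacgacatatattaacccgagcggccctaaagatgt
Tbx18: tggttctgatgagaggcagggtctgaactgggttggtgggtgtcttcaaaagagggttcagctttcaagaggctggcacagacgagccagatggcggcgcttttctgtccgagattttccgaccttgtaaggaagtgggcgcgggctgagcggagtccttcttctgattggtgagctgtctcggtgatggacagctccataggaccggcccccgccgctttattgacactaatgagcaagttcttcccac
Nkx2-5: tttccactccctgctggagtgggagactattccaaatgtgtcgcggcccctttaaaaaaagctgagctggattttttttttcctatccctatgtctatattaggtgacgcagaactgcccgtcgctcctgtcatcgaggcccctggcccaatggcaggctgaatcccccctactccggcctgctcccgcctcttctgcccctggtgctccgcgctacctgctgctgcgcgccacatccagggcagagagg
The Hand2 window holds a GATA match that begins 172 bases before the start and an NK2 match that begins 232 bases before it. The NK2 match of Hand2 is also a match to the E-box CANNTG, which 65.5% of windows hold. The Hand2 window holds 2 E-box matches, and the Tbx18 and Nkx2-5 windows hold 1 each. The Tbx18 and Nkx2-5 windows hold none of the 4 capitalised motifs. These letters are a description of the windows, and no binding was measured.

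Levels are given as CPM, in which a gene's count is divided by the library's total after TMM scaling. They were not compared between genes, because gene lengths were not used, except in the rank given for Tbx18. Eif3m itself stood at 91.7, 83.9 and 87.3 CPM in eIF3m replicates 1, 2 and 3, against 137, 136 and 141 CPM in control replicates 1, 2 and 3. It changed by -35.9%, with a log2 fold change of -0.64 ± 0.05 SE (edgeR, adjusted p = 1.41e-07). Library totals ran from 2156186 (eIF3m replicate 2) to 10061575 counts (eIF3m replicate 1), so the floor of 3 counts was worth 0.286 to 1.32 CPM. eIF3m replicate 1 stood apart in globin and Dcn transcripts, and their source was not tested. Its beta globin Hbb was at 2137 CPM, against 72.9 and 17.4 CPM in eIF3m replicates 2 and 3 and 10.9 to 23.9 CPM in controls. Its Dcn, a fibroblast proteoglycan, was at 55.4 CPM, against 2.21 and 1.80 CPM in the other eIF3m libraries and 0.983 to 1.28 CPM in controls.

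Gata4 encodes a zinc finger factor that activates many genes of heart muscle. It stood at 11.4, 6.18 and 12.8 CPM in eIF3m replicates 1, 2 and 3, against 8.20, 10.1 and 7.74 CPM in control replicates 1, 2 and 3. The groups overlap, since eIF3m replicate 2, with 14 counts, was the lowest library and the other 2 eIF3m libraries were the highest. The log2 fold change was 0.34 ± 0.20 SE and did not pass the test (edgeR, adjusted p = 0.205). Without eIF3m replicate 2 it passed (0.48 ± 0.17 SE, adjusted p = 0.0430), while over all 15 alternatives the adjusted p ran up to 0.575. RefSeq places a long noncoding RNA, LOC102548615, over Gata4, and its count was 0 in all 6 libraries. How reads on overlapping genes were counted is not stated in the labels, which leaves the Gata4 level uncertain.

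Gata6, the paralogue of Gata4 in heart and endoderm, stood at 12.9, 22.1 and 16.4 CPM in eIF3m replicates 1, 2 and 3, against 17.7, 13.8 and 12.9 CPM in control replicates 1, 2 and 3. The groups overlap, and both the lowest and the highest library were eIF3m ones. The log2 fold change of 0.11 ± 0.18 SE did not pass (edgeR, adjusted p = 0.659), and it was -0.016 without eIF3m replicate 2 and 0.31 without eIF3m replicate 1. The other GATA genes were read beside them. Gata3, a factor of T cells, kidney and trophoblast, averaged 73.4 ± 3.38 CPM with eIF3m siRNA and 67.5 ± 0.621 CPM with control siRNA (SD, n = 3 each), and its log2 fold change of 0.14 ± 0.05 SE missed the threshold (edgeR, adjusted p = 0.0616). It passed in 4 of the alternatives, upper-quartile scaling, no scaling factors, the stricter filter and without eIF3m replicate 2. Gata2, a factor of blood progenitors and endothelium, stood at 10.2, 7.95 and 7.08 CPM in eIF3m libraries, against 3.82, 3.32 and 3.32 CPM in control libraries. It rose (1.29 ± 0.23 SE, adjusted p = 3.89e-04), and its highest value was in eIF3m replicate 1, the library with high blood markers. Without that library the log2 fold change of Gata2 was 1.08 ± 0.27 SE (edgeR, adjusted p = 0.00394). Gata1 and Gata5 had 0 counts in all 6 libraries; Gata5 is the third GATA gene expressed in the developing heart.

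Nkx2-5 encodes the homeodomain factor of early heart muscle. It stood at 21.4, 23.8 and 19.0 CPM in eIF3m replicates 1, 2 and 3, against 17.5, 22.2 and 21.3 CPM in control replicates 1, 2 and 3. The 2 groups cover nearly the same range, and the log2 fold change was 0.03 ± 0.12 SE (edgeR, adjusted p = 0.867), with values of -0.063 to 0.11 when a library was left out. Of the 13 other NK homeobox genes listed, 6 had no count and 1 was tested. That gene, Nkx2-3, a factor of gut and spleen mesenchyme, averaged 11.0 ± 1.66 CPM with eIF3m siRNA and 9.21 ± 0.569 CPM with control siRNA (SD, n = 3 each; log2 fold change 0.21 ± 0.17 SE, edgeR adjusted p = 0.352). Nkx2-6, a paralogue of pharyngeal and cardiac precursors, was among those with no count.

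Isl1 encodes a LIM homeodomain factor of second heart field progenitors and pacemaker cells. It had 1 count in each of the 3 eIF3m libraries and 0 in each control library, all under the floor, so the apparent separation of the groups carries no fold change. Other LIM homeobox genes were present, since 6 of the 11 listed were tested, and 3 rose and 0 fell. Over all genes tested, 17.4% rose and 21.2% fell. Isl2, a motor neuron factor, averaged 4.30 ± 0.109 CPM with eIF3m siRNA and 2.46 ± 0.436 CPM with control siRNA (SD, n = 3 each; log2 fold change 0.79 ± 0.28 SE, edgeR adjusted p = 0.0367); it missed the threshold in 8 of 15 alternatives, the replicate block (adjusted p = 0.0559) and DESeq2 (adjusted p = 0.117) among them. Lhx2, a forebrain and limb factor, was at 0.83 ± 0.19 SE (adjusted p = 0.00270) and Lhx4, a pituitary and motor neuron factor, at 0.57 ± 0.16 SE (adjusted p = 0.00896) on the log2 scale. Lhx4 missed the threshold without eIF3m replicate 3 (adjusted p = 0.0511). Lhx6 (0.30 ± 0.18 SE), Lhx9 (0.37 ± 0.22 SE) and Lhx3 (-0.42 ± 0.32 SE) did not pass.

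**Figure D1:**
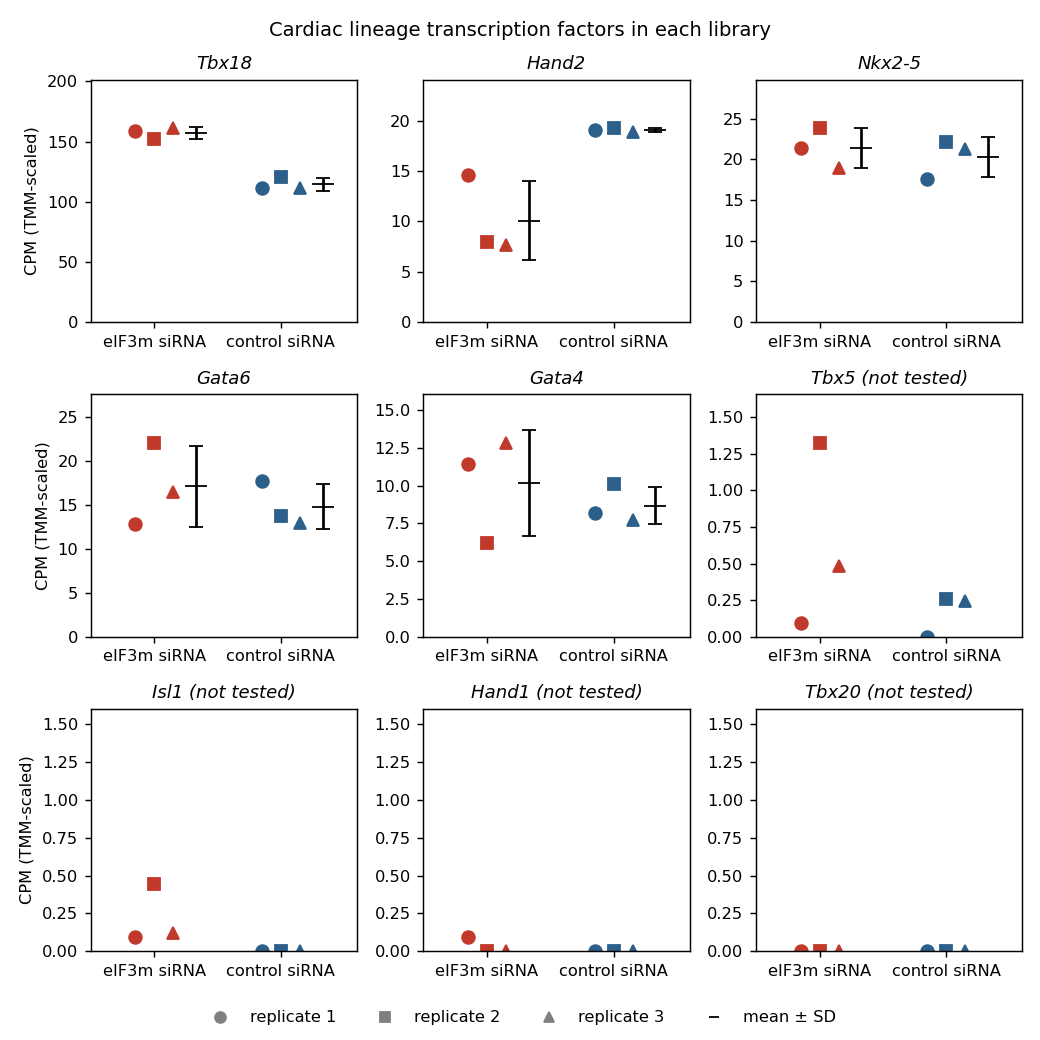
Level of each of the 9 factors in TMM-scaled CPM (vertical axes from 0, scaled per gene) in the 3 eIF3m siRNA libraries (red, left) and the 3 control siRNA libraries (blue, right); marker shape gives the replicate and the black bar the mean ± SD for the 5 tested genes. Tbx18 lies at 152 to 161 CPM in eIF3m libraries and 111 to 121 CPM in controls, Hand2 at 7.68 to 14.6 CPM in eIF3m libraries and 18.9 to 19.3 CPM in controls, and Tbx5, Isl1, Hand1 and Tbx20 lie at or near 0.

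Among the T-box members the 3 genes differed. Tbx18, which marks epicardium and sinus venosus in the heart and anterior somite cells outside it, stood at 158, 152 and 161 CPM in eIF3m replicates 1, 2 and 3, against 112, 121 and 111 CPM in control replicates 1, 2 and 3. The groups do not overlap, as they do not for 48.6% of all genes tested. It rose 1.38-fold, a log2 fold change of 0.46 ± 0.05 SE (edgeR, adjusted p = 4.90e-06), and was called under all 15 alternatives (0.43 to 0.61). Its mean CPM, which is not corrected for gene length, lay above that of 88.4% of tested genes.

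Tbx5, which patterns the left ventricle, the atria and the forelimb, had 1, 3 and 4 counts in eIF3m replicates 1, 2 and 3, against 0, 2 and 2 counts in control replicates 1, 2 and 3. This equals 0.0953, 1.32 and 0.480 CPM in eIF3m libraries, against 0, 0.255 and 0.246 CPM in controls. The gene was above the floor in a single library, eIF3m replicate 3. Tbx20, a factor of the heart chambers and valves, had 0 counts in all 6 libraries, so it was not detectable above 0.286 to 1.32 CPM.

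Of the 14 other T-box genes listed, 7 were tested, and by edgeR 0 rose and 0 fell; at an unadjusted p under 0.05 the count was also 0, as it was by DESeq2 and by limma-voom, while 3 were called with no scaling factors. Tbx2, a repressor in the heart's non-chamber muscle, stood at 19.2, 13.7 and 14.0 CPM in eIF3m libraries, against 11.6, 13.4 and 14.4 CPM in controls (log2 fold change 0.30 ± 0.16 SE, adjusted p = 0.151). Tbx3, a repressor of the conduction system, stood at 13.5, 16.8 and 15.4 CPM in eIF3m libraries, against 13.4, 11.7 and 13.5 CPM in controls (0.20 ± 0.14 SE, adjusted p = 0.277). Both are also expressed in limb and other mesenchyme. Tbx15, the closest relative of Tbx18 and a factor of limb, skin and skeletal muscle, averaged 6.74 ± 1.02 CPM with eIF3m siRNA and 6.94 ± 0.868 CPM with control siRNA (SD, n = 3 each; log2 fold change -0.0046 ± 0.21 SE). Tbx19, a pituitary factor (0.33 ± 0.16 SE), Tbx6, a factor of presomitic mesoderm (0.11 ± 0.17 SE), Mga (0.098 ± 0.082 SE) and Tbr1, a factor of cortical neurons (0.79 ± 0.42 SE), did not pass either. Tbx1, a factor of the pharyngeal second heart field, averaged 0.680 ± 0.486 CPM with eIF3m siRNA and 0.260 ± 0.122 CPM with control siRNA (SD, n = 3 each) and was not tested.

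The Hand genes were also split. Hand2, which is needed for the right ventricle, limb buds and branchial arches, stood at 14.6, 7.95 and 7.68 CPM in eIF3m replicates 1, 2 and 3, against 19.1, 19.3 and 18.9 CPM in control replicates 1, 2 and 3. The groups do not overlap, which holds for 48.6% of all genes tested. The control libraries lie within a narrow range, and eIF3m replicate 1 is the eIF3m library nearest to them. Hand2 fell by 0.82 on the log2 scale (SE 0.19, edgeR adjusted p = 0.00351), a change of -43.5%. It was called lower under all 15 alternatives. Without eIF3m replicate 1, the library with high globin and Dcn, the log2 fold change was -1.29 ± 0.17 SE (adjusted p = 4.90e-06), and without eIF3m replicate 3 it was -0.58 ± 0.18 SE (adjusted p = 0.0252).

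In the same library the blood and endothelial markers were high as sets. The summed level of 6 blood markers was 45.3 to 5223 CPM in eIF3m libraries, against 27.7 to 64.5 CPM in control libraries, and that of 7 endothelial markers 9.96 to 159.6 CPM in eIF3m libraries, against 7.01 to 12.7 CPM in controls. Pecam1, a defining endothelial gene, had 11.1 CPM in eIF3m replicate 1, 0 CPM in eIF3m replicate 2 and 0.120 CPM in eIF3m replicate 3. The smooth muscle and pericyte list summed to 3901 CPM in eIF3m replicate 1, against 3857 and 3704 CPM in eIF3m replicates 2 and 3. The cardiac fibroblast list summed to 19991 CPM, against 19386 and 19218 CPM. Acta2 (2468 CPM in eIF3m replicate 1) and Col1a1 (13338 CPM) make up most of these sums, which hide less abundant markers. Pdgfra was at 8.77 CPM there, against 0.442 and 1.44 CPM, Lum at 10.3, against 3.97 and 2.88, and Myh11 at 27.2, against 11.9 and 8.28. Postn (443, against 477 and 485 CPM) and Cspg4 (5.63, against 7.51 and 7.08 CPM) were lower there. The fibroblast and epicardial factor Tcf21 had at most 1 count in any library. The fall of Hand2 was larger without that library, as given above, and the log2 fold change of Tbx18 without it was 0.47. In bulk RNA, fewer cells with a transcript and less of it per cell cannot be told apart.

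Hand1, the paralogue of the left ventricle and extraembryonic tissue, had 1 count in eIF3m replicate 1 and 0 counts in the other 5 libraries. Of 10 other basic helix-loop-helix genes related to the Hand genes, 3 were tested, and 1 rose, beside 17.4% of all genes tested. Twist2, a factor of dermal and limb mesenchyme, averaged 5.09 ± 0.449 CPM with eIF3m siRNA and 1.78 ± 0.0593 CPM with control siRNA (SD, n = 3 each; log2 fold change 1.49 ± 0.28 SE, edgeR adjusted p = 6.49e-04). Twist1 (0.19 ± 0.11 SE) and Scx, a tendon factor (-0.42 ± 0.27 SE), did not pass; Scx passed with the replicate block (-0.56, adjusted p = 0.0452).

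**Figure D2:**
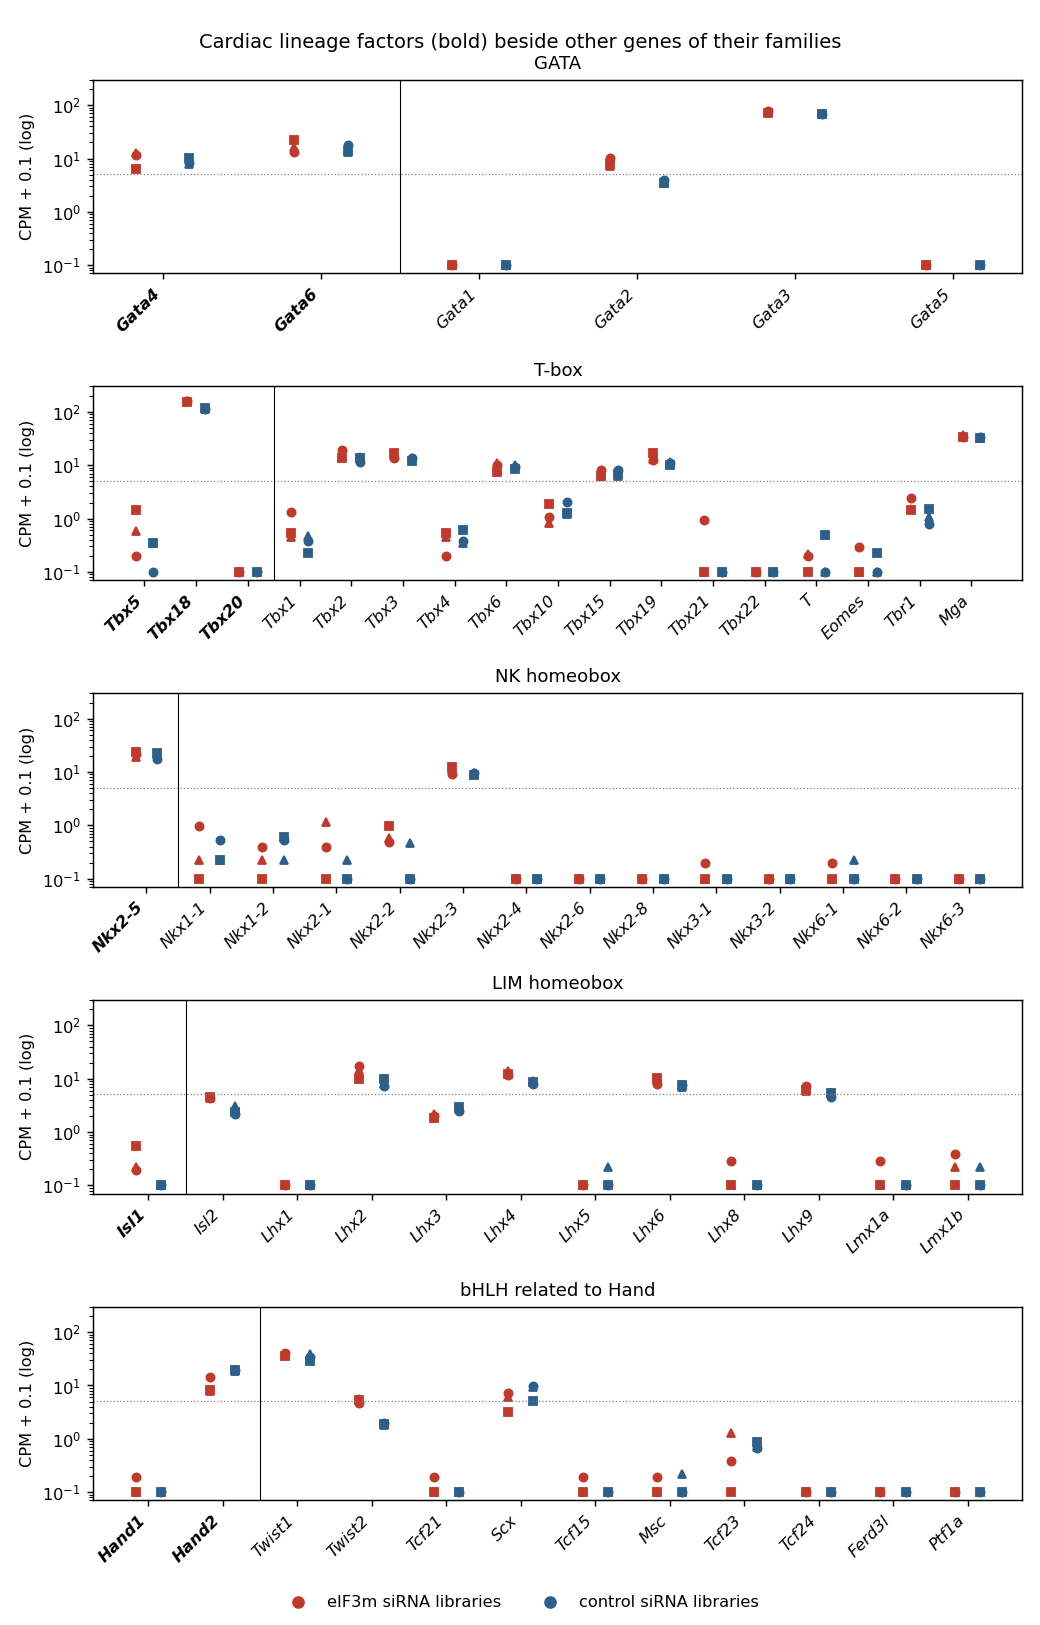
Levels of the 9 cardiac lineage factors (bold, left of the line in each panel) and of the other listed genes of their families, as CPM + 0.1 on a log axis, in the eIF3m siRNA libraries (red, left of each pair) and control siRNA libraries (blue); circle, square and triangle are replicates 1, 2 and 3, and the dotted line marks 5 CPM. Each family holds detected and undetected genes; Gata1, Gata5, Tbx20 and Nkx2-6 sit at 0 counts.

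Across the 5 families, 5 of the 9 cardiac factors lay above 3 counts in every library, and 19 of the 52 other listed family genes did so. Factors of other lineages were also read. Of 12 neural factors 9 were at or under 3 counts in every library, 7 of them with no count at all. Of 12 endoderm and liver factors 4 were at or under 3 counts in every library. In that list 4 genes were tested, and Cdx1, a gut and posterior mesoderm factor, fell (-0.87 ± 0.22 SE, edgeR adjusted p = 0.00495).

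**Figure D3:**
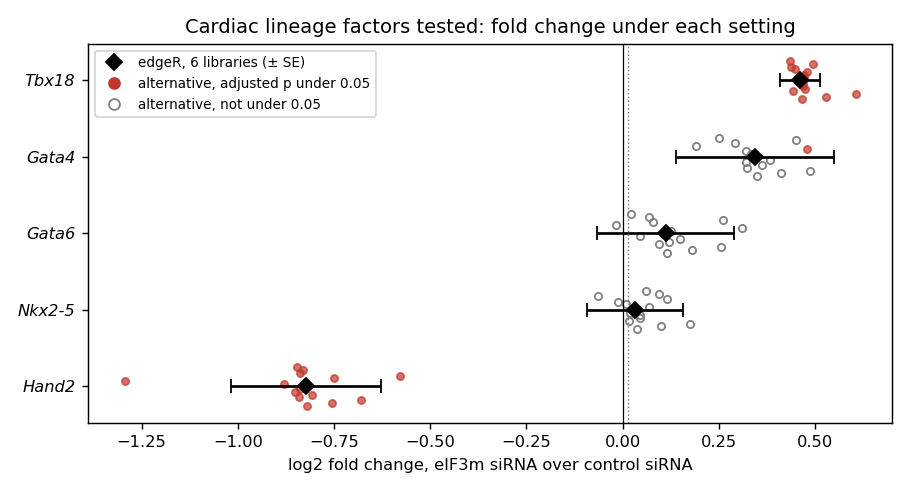
Log2 fold change (eIF3m siRNA over control siRNA) of the 5 tested factors: the black diamond is the edgeR estimate over 6 libraries with its SE, and each circle 1 of 15 alternatives, filled red where the adjusted p was under 0.05. Tbx18 (0.43 to 0.61) and Hand2 (-1.29 to -0.58) are filled throughout, and the dotted line marks the median of all genes tested.

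For each tested member, the 2 genes with the most similar profile over the 6 libraries were taken from 9144 genes of at least 10 CPM, by Pearson's r of log2 CPM. These r values describe 6 libraries that share 2 groups and their depth. For Tbx18 they were Bub1b, a mitotic checkpoint kinase (r = 0.9997), which averaged 53.3 ± 2.21 CPM with eIF3m siRNA and 33.2 ± 2.22 CPM with control siRNA (SD, n = 3 each), and Mms22l, a replication fork repair gene (r = 0.996). For Hand2 they were Ptrf, which encodes a caveolar coat protein (r = 0.994) and averaged 109.8 ± 19.8 CPM with eIF3m siRNA and 151 ± 3.79 CPM with control siRNA (SD, n = 3 each), and Psmd7, a proteasome subunit (r = 0.993). Gata4 was nearest to Poc1b and Ephb3 (r = 0.984 and 0.979), Gata6 to Slc35d1 and Arl2bp (0.979 and 0.977), and Nkx2-5 to Mettl13 and Rnf34 (0.985 and 0.980).

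Genes that work with the cardiac factors were called in a share near that of all genes. Of 37 partners and cofactors 25 were tested, and 6 rose and 3 fell (11 and 2 with no scaling factors), with a median log2 fold change of 0.052 beside 0.013 over all genes. The 3 that fell were MADS-box factors of muscle, Mef2c (-0.50 ± 0.10 SE, edgeR adjusted p = 7.06e-04), Mef2a (-0.31 ± 0.06) and Mef2d (-0.22 ± 0.05, and -0.08 with no scaling factors, where it did not pass). Mef2c stood at 26.6, 34.4 and 29.4 CPM in eIF3m libraries, against 38.1, 43.1 and 41.4 CPM in controls, without overlap, as for 48.6% of all genes tested. The 6 that rose were Tead1 (0.36 ± 0.05) and Tead2 (0.41 ± 0.08), which bind DNA for YAP, Zfpm1, a GATA cofactor (0.33 ± 0.06), Smad5, a BMP signal mediator (0.29 ± 0.06), Tcf3, an E-protein that pairs with HAND and other basic helix-loop-helix factors (0.25 ± 0.05), and Ldb1, the LIM-domain-binding cofactor of ISL1 (0.22 ± 0.05). Zfpm2, the GATA4 cofactor of the heart, was at 0.19 ± 0.11 SE (adjusted p = 0.173). Myocd, the cardiac and smooth muscle coactivator of SRF, averaged 42.2 ± 4.85 CPM with eIF3m siRNA and 46.4 ± 3.36 CPM with control siRNA (SD, n = 3 each; -0.12 ± 0.09 SE, edgeR adjusted p = 0.303). Irx4, Hey2, Hopx and Smyd1, factors of ventricular and working muscle, were not tested for lack of counts.

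Genes that the cardiac factors are known to activate in heart muscle were mostly too low to be tested or lower with the eIF3m siRNA. Of 30 listed, 14 were tested, and 1 rose and 10 fell, with a median log2 fold change of -0.81. Of all genes tested, 17.4% rose and 21.2% fell, with a median of 0.013. Among 9 defining cardiomyocyte markers only Tnnt2, cardiac troponin T, reached 5 CPM in any library; it stood at 158, 155 and 142 CPM in eIF3m libraries, against 376, 359 and 362 CPM in controls. Myh6, a target of GATA4 and TBX5, averaged 0.510 ± 0.525 CPM with eIF3m siRNA and 0.741 ± 0.105 CPM with control siRNA, and Nppa, the atrial peptide gene that GATA4, NKX2-5 and TBX5 activate, 1.15 ± 0.151 CPM with eIF3m siRNA and 1.09 ± 0.976 CPM with control siRNA (SD, n = 3 each). Nppb, Myh7, Myl2, Myl7, Tnni3 and Actc1 had group means of 0 to 0.857 CPM with eIF3m siRNA and 0.0410 to 1.62 CPM with control siRNA, and none was tested. Of these 9 cardiomyocyte markers, 8 thus stayed under 5 CPM in all libraries of both groups. The genes with the lowest p were Gja5, connexin 40 (-1.80 ± 0.06 SE), Casq2, calsequestrin (-1.22 ± 0.04), Tnnt2 (-1.27 ± 0.05) and Atp2a2, the calcium pump (-0.55 ± 0.03). Gja1, connexin 43, was the gene that rose (0.51 ± 0.06).

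Lists for places where Tbx18, Isl1 and the others are used in the heart gave few tested genes. Their counts stand beside 17.4% risen and 21.2% fallen of all genes tested. Of 9 epicardial genes 2 were tested and both fell: Msln, mesothelin (-0.69 ± 0.10 SE, edgeR adjusted p = 3.91e-05), and Sema3d (-0.32 ± 0.11), which missed the threshold in 8 of 15 alternatives. Wt1, Aldh1a2, Upk1b and Upk3b were not tested. Of 7 pacemaker genes 5 were tested, and 1 rose (Vsnl1, 0.79 ± 0.25) and 1 fell (Bmp4, -0.32 ± 0.05, and -0.17 with no scaling factors). The list had 3 risers and 1 gene that fell when scaled by upper quartile, and likewise when unscaled. Vsnl1 missed the threshold without eIF3m replicate 3 (0.55), without control replicate 1 (0.79) and without control replicate 3 (0.68; edgeR adjusted p = 0.0603 to 0.165). Hcn4, the pacemaker channel, had no count in eIF3m libraries and averaged 0.0819 ± 0.142 CPM in controls (SD, n = 3). Shox2, a factor of the sinus node and of limb, stood at 22.3 ± 3.57 CPM with eIF3m siRNA and 17.2 ± 1.56 CPM with control siRNA (SD, n = 3 each; log2 fold change 0.32 ± 0.13 SE, edgeR adjusted p = 0.0640). Of 11 early heart field genes 3 were tested and 2 rose, among them Foxc1 (0.34 ± 0.12), which was not called in every alternative; Mesp1, Fgf8 and Fgf10 were not tested.

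**Figure D4:**
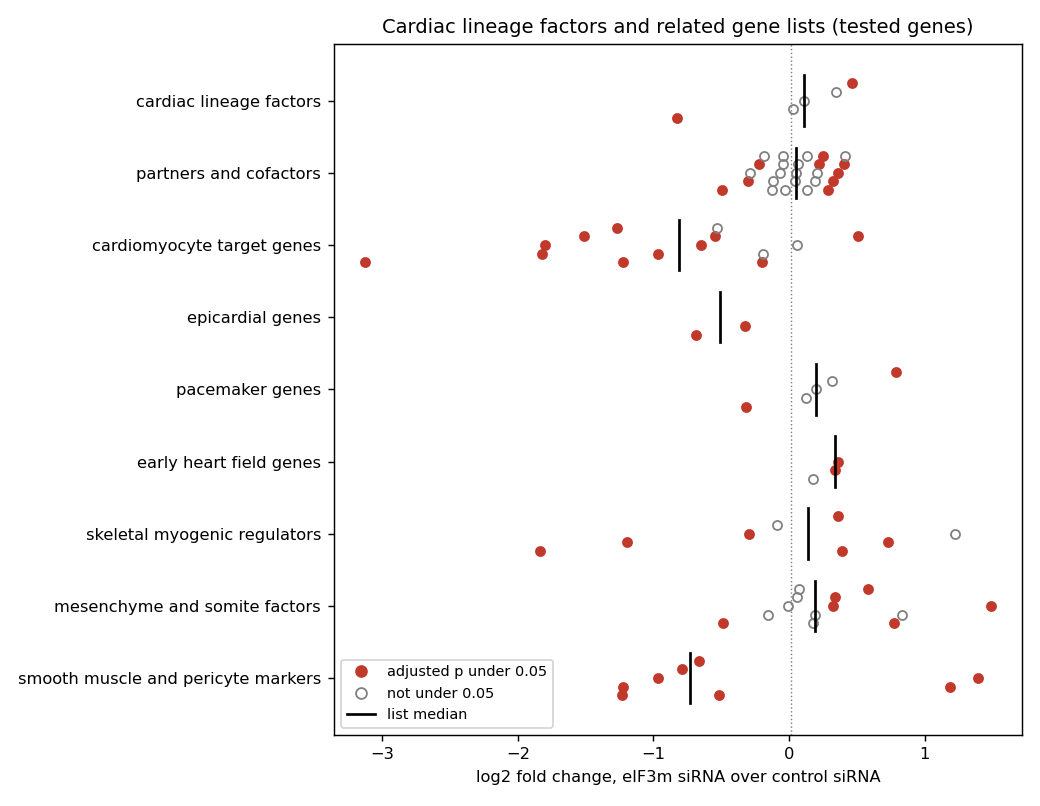
Log2 fold change (eIF3m siRNA over control siRNA) of each tested gene, by list; filled red where the adjusted p was under 0.05, with the list median as a black line and the median of all genes as a dotted line. The cardiac lineage factors have 1 gene on each side past the threshold, and the cardiomyocyte target list has a median of -0.81.

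The same libraries held factors of skeletal muscle and of general mesenchyme. Their counts of calls stand beside 17.4% risen and 21.2% fallen of all genes tested. Of 16 skeletal myogenic regulators 8 were tested, and 3 rose and 3 fell (4 and 2 with no scaling factors). Myod1 stood at 13.3, 19.4 and 15.1 CPM in eIF3m libraries, against 13.2, 16.8 and 17.8 CPM in controls, with no call (-0.09 ± 0.16 SE, edgeR adjusted p = 0.705). Myog stood at 4.77, 6.18 and 5.76 CPM in eIF3m libraries, against 22.1, 18.9 and 16.8 CPM in controls, and fell (-1.84 ± 0.17 SE). Tmem8c, the fusion factor, also fell (-1.19 ± 0.35), as did Eya1 (-0.29 ± 0.09), while Eya4 (0.73 ± 0.10) and Six4 (0.39 ± 0.08) were among those that rose. Tmem8c and Eya1 missed the threshold in 3 and 8 of 15 alternatives. Of 23 mesenchyme and somite factors 13 were tested, and 5 rose and 1 fell: Foxf1 (0.58 ± 0.05), Osr2 (0.77 ± 0.16), Twist2, Snai2 (0.33 ± 0.10) and Foxc1 rose, and Snai1 fell (-0.49 ± 0.06). With no scaling factors 8 rose and 1 fell, and with DESeq2 or without eIF3m replicate 1 it was 3 and 1. Snai2 (0.27, edgeR adjusted p = 0.109) and Foxc1 (0.33, adjusted p = 0.0770) missed the threshold without that library. Osr1, a factor of intermediate and lateral mesoderm, averaged 435.6 ± 11.0 CPM with eIF3m siRNA and 414.5 ± 15.7 CPM with control siRNA (SD, n = 3 each) and did not pass (0.07 ± 0.04 SE, edgeR adjusted p = 0.181).

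Markers of the other cells that the cultures could hold were counted too, beside 17.4% risen and 21.2% fallen of all genes tested. Of 9 smooth muscle and pericyte markers 8 were tested, and 2 rose and 6 fell, led by Acta2 (-0.52 ± 0.02 SE), Pdgfrb (-0.96 ± 0.04), Notch3 (1.39 ± 0.07) and Tagln (-0.67 ± 0.03). Of 12 cardiac fibroblast markers 9 were tested, and 5 rose and 3 fell, among them Col1a1 (0.14 ± 0.01), Thy1 (-0.55 ± 0.04), Ddr2 (-0.42 ± 0.04) and Col3a1 (0.27 ± 0.03). Without eIF3m replicate 1, 4 rose and 4 fell, and Dcn, at 4.43 ± 1.03 with all libraries, was at 0.81 ± 0.52 and did not pass (edgeR, adjusted p = 0.241). Of 12 endothelial markers 4 were tested, and 1 rose and 2 fell: Flt1 (-0.91 ± 0.05) and Egfl7 (-0.56 ± 0.11) fell, and Vwf rose (2.74 ± 0.72) but not without eIF3m replicate 1 (0.17, edgeR adjusted p = 0.652). Of 12 blood and macrophage markers found, 5 were tested and 4 rose, and 0 were called without that library; by DESeq2 with all libraries the count was also 0, with the globins given no adjusted p.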

How the data were processed

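RNA was sequenced from 6 rat cell libraries, 3 with eIF3m siRNA and 3 with control siRNA, grouped and numbered from the labels. The authors deposited 1 whole-number count per gene and library and did not normalise it. The tools HISAT2 2.2.1, Trimmomatic 0.40, featureCounts, limma and DESeq2 and the build rn6 are listed without role or order, per the submitters' processing notes; nothing there states the annotation or how strand and multi-mapping reads were treated. In each file, 27 symbols had become calendar dates and were left out, with 0.203% to 0.216% of each library's counts.

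The test was the quasi-likelihood F-test of edgeR 4.0.16 in R 4.3.3 (TMM, no covariate, two-sided). The filter filterByExpr (smallest count 10, smallest total 15) kept 12724 genes. The SE is that of the log2 fold change. A floor of 3 counts per library was used, and floors cover counting error only. Alternatives used DESeq2 1.42.0, limma 3.58.1 (voom), other scalings and filters, robust dispersion, a replicate block and leaving out each library. The edgeR test was checked on simulated counts. Promoter windows came from RefSeq tables of assembly GRCr8, matched by symbol for 8 of the 9 members.

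The members and lists were chosen with earlier results of these data known. Genes named are all members, the tested genes of the paralogue lists, up to 4 called genes per list with the lowest p, 8 cardiomyocyte genes whatever they show, and the 2 nearest profiles per tested member; others were chosen after their values were seen, and some listed genes are not reported here. Same-numbered libraries did not deviate together (r = -0.0054 to 0.030). With 3 libraries per group, this cannot show whether the numbers pair them.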

Additional observations from a re-analysis of the deposited data

How the results depend on the processing

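Tbx18 and Hand2 kept their direction and their call under all 15 alternatives, and Eif3m did too (-0.67 to -0.50). The count of members called was 2 in 14 alternatives and 3 without eIF3m replicate 2, where Gata4 passed (0.48). Leaving out a library moved Gata6 between -0.016 (eIF3m replicate 2) and 0.31 (eIF3m replicate 1), and Nkx2-5 between -0.063 (control replicate 1) and 0.11 (eIF3m replicate 3), with -0.012 without eIF3m replicate 2; none of these passed. Genes called in all ran from 4028 to 4754 when a library was left out, beside 4920. No scaling factors moved the median of all genes to 0.16, so the Tbx18 value of 0.61 and the Hand2 value of -0.68 there stand against that shift.

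Called genes were 2 for the other GATA genes with upper-quartile scaling, no scaling factors and the stricter filter; 3 for the other T-box genes with no scaling factors and 1 with no filter; 2 for the helix-loop-helix genes with no scaling factors and with the replicate block; 1 for epicardial genes with upper-quartile scaling, no scaling factors and DESeq2; 4 for pacemaker genes with upper-quartile scaling and no scaling factors; and 1 for early heart field genes with DESeq2. With no filter they were 2 for endoderm and liver factors, 12 for endothelial and 11 for blood markers, the last at 0 with DESeq2 and 1 with limma-voom or robust dispersion. Leaving out a library gave ranges of 1 to 2 (other GATA, helix-loop-helix and epicardial genes), 1 to 3 (other LIM homeobox and pacemaker genes), 0 to 2 (early heart field genes), 3 to 6 (skeletal regulators) and 0 to 5 (blood markers). The cause was not tested.

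With the replicate block, 2123 genes rose and 2632 fell, and Hand2 was at -0.88 and Tbx18 at 0.47. Depth limits what can be said of Tbx5, Isl1, Hand1 and Tbx20: the floor of 3 counts was 1.32 CPM in eIF3m replicate 2 and 0.286 to 0.424 CPM in the other 5 libraries.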
